A study of Caenorhabditis elegans with 23 samples.

Results

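The sperm function genes of C. elegans described here are all genes whose symbol starts with spe-, together with fer-1, gsp-3, gsp-4, comp-1, try-5, snf-10, cpb-1, fog-1 and fog-3. Of 43 such symbols in the RefSeq annotation of WBcel235, 42 were matched to an ID among the 46904 gene IDs of the count tables, and spe-21 was not matched. Reads per gene were counted in 23 libraries of whole adult worms, 12 of mRNA and 11 of small RNA. The labels name 4 groups. N2 is the laboratory reference strain and MY16 was isolated from the wild, while what Star stands for in N2_Star and MY16_Star is not said. Each group had 3 mRNA libraries and 3 small RNA libraries, except N2_Star with 2 small RNA libraries. The design text places the failed small RNA sample in MY16_Star, but among the samples listed, and in the table's columns, N2_Star is the group with a library fewer, and the columns were followed here. All worms were day 1 adults grown at 20 °C on E. coli OP-50, RNA of the whole animal was taken with TRIzol, and no transgene or treatment is named. The design text calls the replicates biological, with no further statement of how they were kept apart, so the p-values measure the spread between these libraries.

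C. elegans hermaphrodites make sperm late in larval life and then switch the germ line to oocytes, so that an adult fertilizes its own eggs from a stored supply. Germ cells fated to become sperm enter meiosis, load the major sperm protein into fibrous bodies, and bud off round spermatids. These are activated into crawling spermatozoa that compete, bind and enter the oocyte. Most spe genes were named for mutants whose sperm fail at 1 of these steps while the oocytes remain normal. The members were ordered by these steps into 4 fate genes, 11 of spermatocyte and spermatid formation, 11 of sperm activation and 10 of fertilization and egg activation. The fate genes are fog-1 and fog-3, with cpb-1 and spe-44 placed beside them as regulators, although their roles given below are not in fate itself. A further 6 genes, spe-40, spe-48, spe-54, spe-55, spe-57 and spe-58, were not placed. Chromosome I holds 19 members, chromosome IV 11, chromosome V 7, chromosome III 3 and chromosome II 2.

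The mRNA libraries held 9362590 to 23150198 counts in genes, and the small RNA libraries 1778321 to 19563562. Levels are CPM, that is, counts relative to library size, which was scaled by TMM so that most genes keep equal levels. They are compared within a gene only, since CPM takes no account of gene length. A gene was called higher or lower where the Benjamini-Hochberg adjusted p of edgeR's quasi-likelihood test, over all genes of a contrast, was under 0.05. All reads were aligned to ce11, the N2 genome, and genes whose MY16 allele differs from it may therefore be undercounted in MY16 and MY16_Star. Reads of gsp-3 and gsp-4, which are near-identical copies, may have been split between them, and their separate values are uncertain to that extent. A further 11 members overlap another coding gene, among them spe-15, fog-1, spe-5, snf-10, spe-26, spe-9 and spe-49, and whether the mRNA counting used strand is not given in the sources used here.

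In mRNA, the median sperm function gene was lower in both MY16 groups than in the matching N2 group, and members passed the test in MY16_Star against N2_Star only. In that contrast 14 of 36 members tested were lower and none was higher, where 14.8% of all 13983 genes tested were called lower, 7.69% higher and 22.5% in either direction. Of the 36, 7 reached the filter's cutoff of 0.555 CPM in too few MY16 and MY16_Star libraries to have entered without those of N2 and N2_Star, so that a lower level was built into their entry. These include 5 of the 14, namely spe-10, spe-12, spe-27, spe-42 and spe-49, and 9 of the other 29 members were called lower. The median log2 fold change was -1.36 over those 29, -1.45 over all 36 and -0.12 over all genes. All MY16_Star libraries lay below all N2_Star libraries for 13 of the 36 members and above them for 2, where 20.3% and 16.4% of all genes did so. Of the 13, 6 were among the 7 members with a lower level built into their entry, and 7 were among the other 29. In MY16 against N2, which shares no library with the first contrast, edgeR called 0 of 36 members, where 4.03% of all genes were called, DESeq2 called 1, and at an unadjusted p under 0.05 edgeR had 8 lower and 0 higher, where 7.80% and 5.07% of all genes were. All MY16 libraries lay below all N2 libraries for 20 of the 36 members, where 14.9% of all genes did so. These were 4 of the 7 members with a lower level built into their entry and 16 of the other 29. The median was -0.86 over the members, -0.73 over the 29 just described and -0.02 over all genes. In RNA of whole worms, fewer sperm or sperm-forming cells and less RNA per cell cannot be told apart.

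Each library's level was summarised as the median over the 36 members of their percent of the N2 mean. N2 stood at 102%, 101% and 96.2%, N2_Star at 55.7%, 105% and 121%, MY16 at 27.9%, 61.6% and 71.6%, and MY16_Star at 24.4%, 25.4% and 51.8%. The 3 N2 libraries were close together, whereas in each other group replicate 1 was the lowest. MY16 replicate 1 was the lowest of its group for 27 of the 36 members, N2_Star replicate 1 for 31, and MY16_Star replicate 1 for 23. The median ratio of the highest to the lowest library over the members was 1.32 in N2, 2.86 in N2_Star, 2.51 in MY16 and 2.54 in MY16_Star. Levels of 59 further sperm genes, such as those of the major sperm protein family, varied over the same libraries, at 97.0% to 103% in N2, 37.5%, 104% and 99.2% in N2_Star, 22.7%, 53.5% and 63.1% in MY16, and 11.1%, 14.9% and 45.9% in MY16_Star. These 59 of 68 listed genes were kept by a minimum level in N2. Genes low in N2 but higher elsewhere, such as msp-74, were left out, so a lower level in other groups may be partly built in. The part of the shared variation between libraries in each gene's difference was not tested.

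**Figure D1:**
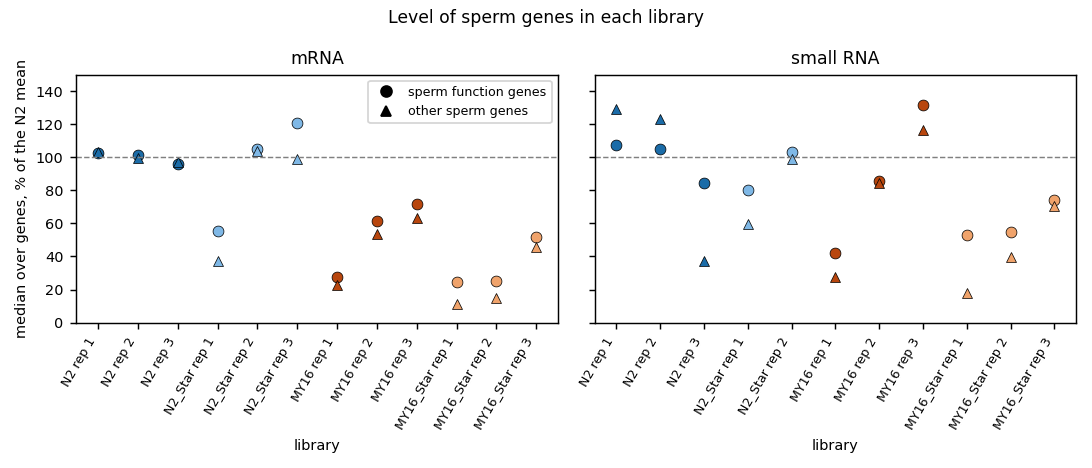
Median level per library as percent of the N2 mean, for the sperm function genes tested and for the other sperm genes, with mRNA and small RNA in separate panels; each point is 1 library. The other sperm genes are those above a minimum level in N2. In mRNA the N2 points lie near 100%, N2_Star replicate 1 lies apart from the other N2_Star libraries, and the MY16 and MY16_Star points lie below those of N2.

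**Figure D2:**
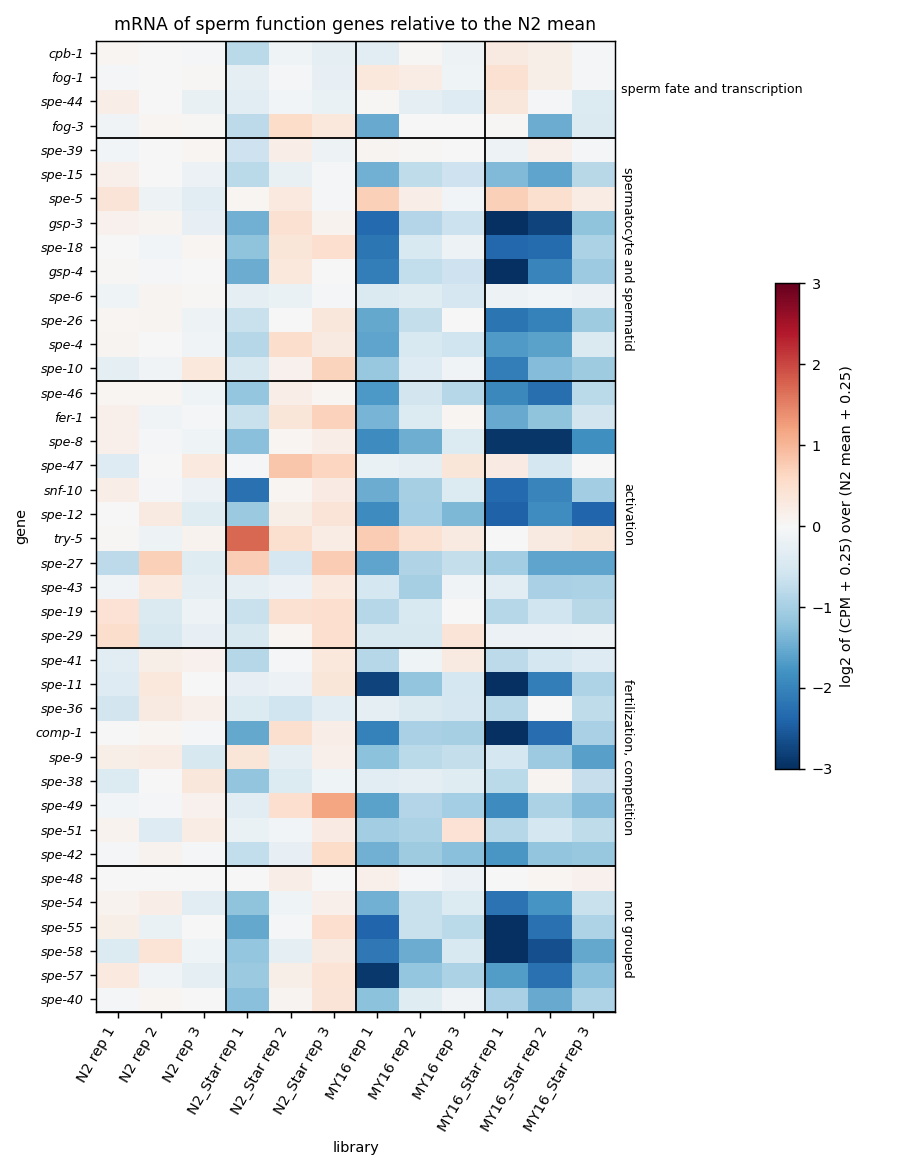
mRNA level of 40 sperm function genes in each of 12 libraries, as log2 of (CPM + 0.25) over (N2 mean + 0.25), with rows ordered by role. Most rows of the spermatocyte, activation and fertilization genes are lowest in the MY16 and MY16_Star columns, while most fate genes stay near the N2 mean.

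None of the 4 genes grouped as fate passed the test in mRNA, and the means of fog-1, cpb-1 and spe-44 were not lower in MY16_Star than in N2_Star. fog-1 (chromosome I, 3211046 to 3217366), a CPEB family RNA-binding protein needed for germ cells to become sperm, stood at 26.5, 27.8 and 28 CPM in N2, 22.2, 26.6 and 22.9 in N2_Star, 34.2, 32.1 and 25.3 in MY16 and 37.8, 30.9 and 26.9 in MY16_Star. All 3 MY16_Star libraries lay above all 3 N2_Star libraries, but the difference did not pass the test (log2 fold change 0.41, SE 0.171, adjusted p = 0.093). cpb-1 (chromosome III, 9322310 to 9324913), another CPEB protein, which is needed for spermatocytes to complete meiosis, stood at 75.3, 70.8 and 69 CPM in N2, 41.1, 65.2 and 59.3 in N2_Star, 56.3, 73.2 and 64.2 in MY16 and 86.5, 80.6 and 69 in MY16_Star. MY16_Star was again above N2_Star in every library, just short of the threshold (log2 fold change 0.51, SE 0.173, adjusted p = 0.0509), and it passed as higher in 9 of 19 alternative fits, at adjusted p of 0.0195 to 0.0469. spe-44, a transcription factor that turns on many sperm genes, stood at 30.5, 26.2 and 22.6 CPM in N2, 21.3, 24.9 and 23 in N2_Star, 27.3, 21.8 and 20.1 in MY16 and 33.5, 25.7 and 19.7 in MY16_Star. Its groups overlapped throughout, with log2 fold change 0.19, SE 0.21, adjusted p = 0.52 for MY16_Star against N2_Star. fog-3, a Tob protein that acts with fog-1, was low, at 0.562, 0.657 and 0.635 CPM in N2, 0.252, 1.02 and 0.837 in N2_Star, 0.0569, 0.611 and 0.621 in MY16 and 0.641, 0.0588 and 0.388 in MY16_Star. Its groups overlapped and no contrast was called. The median of the 4 fate genes was 88.6% of the N2 mean in MY16 and 105% in MY16_Star, and 0 of 4 were called in any mRNA contrast of the reported fit. Of the 4, fog-3 was the lowest, at 69.6% in MY16 and 58.7% in MY16_Star.

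Among 11 genes of spermatocyte and spermatid formation, 6 were lower in MY16_Star than in N2_Star and none higher. Of all genes tested, 14.8% were lower and 7.69% higher in that contrast. The phosphatase gsp-3 (chromosome I, 4709259 to 4710712), of the protein phosphatase 1 family and needed for sperm meiosis and motility, stood at 18.4, 17.6 and 14.1 CPM in N2, 6.0, 23 and 17.8 in N2_Star, 3.13, 8.97 and 10.6 in MY16 and 1.86, 2.23 and 7.12 in MY16_Star. Its mean was 4.18-fold lower in MY16_Star than in N2_Star (log2 fold change -2.07, SE 0.60, adjusted p = 0.0312), although MY16_Star replicate 3 reached above N2_Star replicate 1. Its copy gsp-4 (chromosome I, 3838290 to 3839673) stood at 15.9, 15 and 15.5 CPM in N2, 5.34, 19.4 and 15.3 in N2_Star, 3.47, 9.17 and 9.94 in MY16 and 1.63, 3.76 and 7.12 in MY16_Star. It had the same overlap and a 3.2-fold lower mean (log2 fold change -1.68, SE 0.556, adjusted p = 0.048). In MY16 against N2 neither passed the test, with adjusted p = 0.462 for gsp-3 and adjusted p = 0.483 for gsp-4, though no MY16 library reached any N2 library for either gene.

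spe-15 (chromosome I, 1446497 to 1465358), a class VI myosin that sorts components between spermatids and the residual body, stood at 46, 42 and 36.7 CPM in N2, 23.7, 35.5 and 40.5 in N2_Star, 15.2, 24.6 and 26.8 in MY16 and 16.5, 13.7 and 23.2 in MY16_Star. It was lower in MY16_Star than in N2_Star without overlap, its mean being 1.87-fold lower (log2 fold change -0.90, SE 0.267, adjusted p = 0.0331). MY16 lay below N2 in all libraries and by the same 1.87-fold, which edgeR did not call (log2 fold change -0.91, SE 0.267, adjusted p = 0.0987) and 4 of 19 alternative fits did, among them DESeq2 (adjusted p = 0.0271). spe-26 (chromosome IV, 10389578 to 10391927), a kelch protein thought to bind actin, stood at 4.81, 4.93 and 4.15 CPM in N2, 2.82, 4.65 and 5.91 in N2_Star, 1.42, 2.7 and 4.56 in MY16 and 0.816, 0.941 and 2.07 in MY16_Star. MY16_Star was below N2_Star in every library (log2 fold change -1.81, SE 0.471, adjusted p = 0.0214), with a 3.5-fold lower mean. spe-18 (chromosome II, 13151459 to 13153399), needed to assemble major sperm protein in fibrous bodies, stood at 13.9, 13.1 and 14.5 CPM in N2, 5.84, 17.8 and 19.8 in N2_Star, 2.9, 10.04 and 12.3 in MY16 and 2.51, 2.59 and 6.99 in MY16_Star. The mean was 3.59-fold lower in MY16_Star than in N2_Star (log2 fold change -1.85, SE 0.572, adjusted p = 0.0385), and N2_Star replicate 1 lay within the MY16_Star range. spe-10 (chromosome V, 10384250 to 10385740), a palmitoyltransferase of the fibrous body-membranous organelles, stood at 0.624, 0.739 and 1.06 CPM in N2, 0.504, 0.908 and 1.43 in N2_Star, 0.228, 0.56 and 0.725 in MY16 and 0, 0.176 and 0.259 in MY16_Star. It was lower in MY16_Star than in N2_Star in all libraries, with a mean 6.52-fold lower (log2 fold change -2.67, SE 0.733, adjusted p = 0.0257). Like the members named above, spe-10 entered the test through N2 and N2_Star libraries.

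The other spermatocyte genes described here were not called in any mRNA contrast of the reported fit. spe-4, a presenilin of the same organelles, stood at 3.62, 3.45 and 3.13 CPM in N2, 1.76, 5.05 and 4.18 in N2_Star, 0.967, 2.39 and 2.18 in MY16 and 0.874, 0.941 and 2.46 in MY16_Star. MY16 lay below N2 in all libraries, and MY16_Star against N2_Star was short of the threshold (log2 fold change -1.36, SE 0.501, adjusted p = 0.0666). spe-6, a casein kinase I that holds spermatids inactive, stood at 6.37, 7.47 and 7.16 CPM in N2, 5.79, 6.01 and 6.74 in N2_Star, 5.12, 5.4 and 4.87 in MY16 and 6.29, 6.58 and 6.15 in MY16_Star. Its MY16 libraries were just below those of N2 (log2 fold change -0.45, SE 0.195, adjusted p = 0.353), while MY16_Star and N2_Star overlapped. spe-39, which acts in vesicle traffic in many cell types, stood at 83.4, 88.5 and 91.7 CPM in N2, 56.6, 102 and 79.3 in N2_Star, 93.2, 89.5 and 87.6 in MY16 and 79.1, 98.1 and 85 in MY16_Star. spe-5, a subunit of the vacuolar proton pump, stood at 19.5, 13.5 and 11.9 CPM in N2, 15.5, 18.2 and 14.5 in N2_Star, 24.6, 17.2 and 14.2 in MY16 and 24.8, 20.9 and 17.4 in MY16_Star. For spe-39 and spe-5 the groups overlapped in both isolate contrasts, and both log2 fold changes were above 0 (0.04 and 0.32 for MY16 against N2, 0.14 and 0.39 for MY16_Star against N2_Star).

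**Figure D3:**
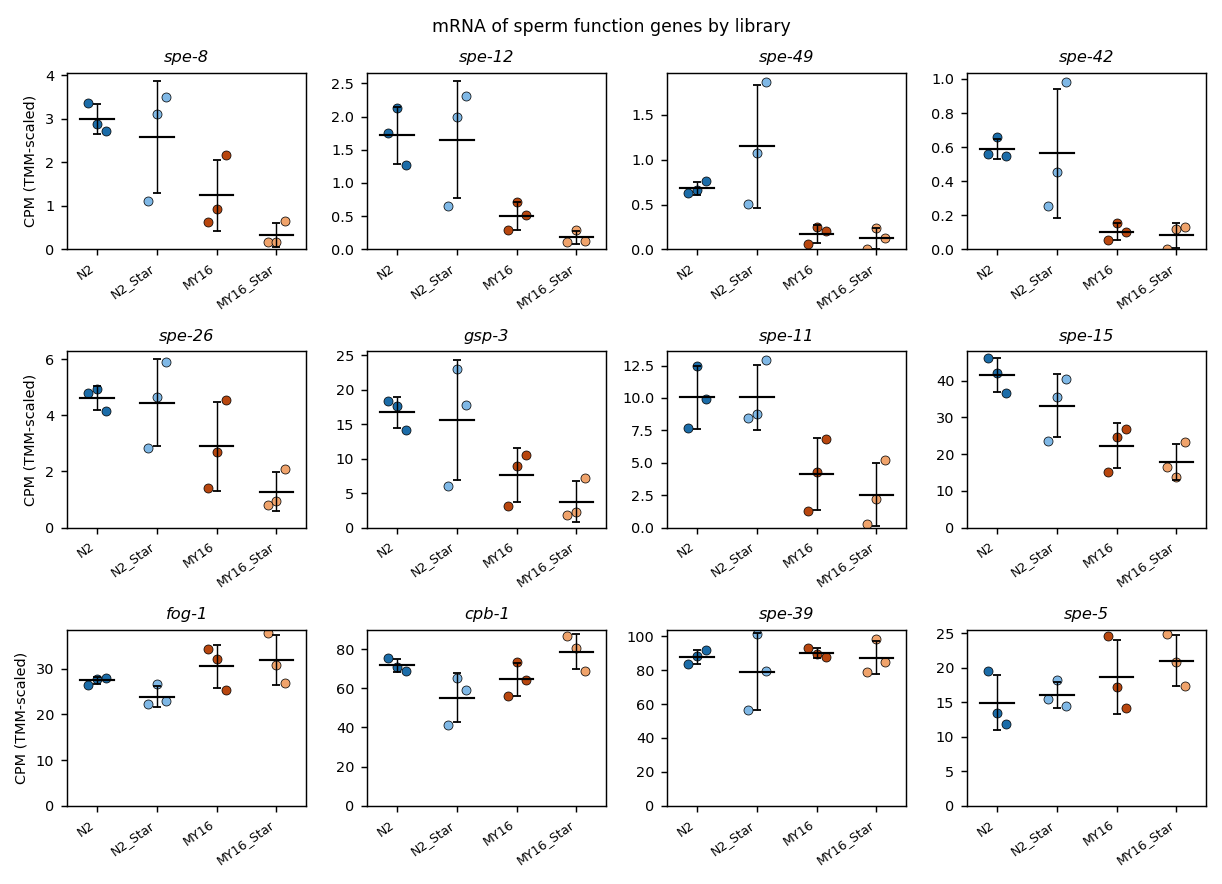
mRNA level of 12 sperm function genes in CPM, TMM-scaled; horizontal lines are group means, error bars the SD of 3 libraries and points the single libraries. spe-8, spe-12, spe-49 and spe-42 are lowest in MY16_Star, while fog-1, cpb-1, spe-39 and spe-5 are not lower there than in N2_Star.

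Of the 11 activation genes, 7 passed the filter on low counts, and 3 of these were lower in MY16_Star than in N2_Star. Of all genes tested, 14.8% were lower. spe-8 (chromosome I, 118093 to 120901), a tyrosine kinase that gives its name to the group of genes through which hermaphrodite spermatids are activated, stood at 3.37, 2.87 and 2.71 CPM in N2, 1.11, 3.12 and 3.49 in N2_Star, 0.626, 0.917 and 2.18 in MY16 and 0.175, 0.176 and 0.647 in MY16_Star. Every MY16_Star library lay below every N2_Star library, with a mean 7.73-fold lower (log2 fold change -2.95, SE 0.637, adjusted p = 0.0099). MY16 also lay below N2 in every library, without passing the test (log2 fold change -1.32, SE 0.571, adjusted p = 0.339). spe-12 (chromosome I, 8224539 to 8226297), a membrane protein of the same group, stood at 1.75, 2.13 and 1.27 CPM in N2, 0.655, 1.99 and 2.31 in N2_Star, 0.284, 0.713 and 0.518 in MY16 and 0.117, 0.294 and 0.129 in MY16_Star. Its MY16_Star libraries were all below those of N2_Star, by 9.17-fold in the mean (log2 fold change -3.14, SE 0.601, adjusted p = 0.00542), and MY16 was below N2 in every library at adjusted p = 0.126. spe-27 (chromosome IV, 5864529 to 5865918), of the same group, gave only 3, 12 and 8 counts in N2, 20, 5 and 21 in N2_Star, 0, 3 and 2 in MY16 and 2, 0 and 0 in MY16_Star. The ratio of N2_Star to MY16_Star was 19.7, with an interval from counting error alone of 5.16 to 168 at 95%, and the test called it (adjusted p = 0.024). Both spe-12 and spe-27 entered the test through N2 and N2_Star libraries.

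fer-1 (chromosome I, 8623012 to 8631202), a ferlin needed for the membranous organelles to fuse with the sperm surface, stood at 3.12, 2.55 and 2.67 CPM in N2, 1.66, 3.63 and 4.63 in N2_Star, 0.91, 2.04 and 2.9 in MY16 and 0.816, 1.06 and 1.81 in MY16_Star. Its mean was 2.69-fold lower in MY16_Star than in N2_Star, just short of the threshold (log2 fold change -1.43, SE 0.482, adjusted p = 0.0511) and past it in 9 of 19 alternative fits, and the groups overlapped. snf-10, an SLC6 family transporter through which sperm respond to the male activator, stood at 2.19, 1.81 and 1.65 CPM in N2, 0.202, 1.99 and 2.26 in N2_Star, 0.512, 0.815 and 1.35 in MY16 and 0.175, 0.294 and 0.777 in MY16_Star. All MY16 libraries were below all N2 libraries, but neither that contrast (adjusted p = 0.621) nor MY16_Star against N2_Star (log2 fold change -1.84, SE 0.749, adjusted p = 0.0903) was called. The other activation genes tested were spe-46, at adjusted p = 0.0513 and log2 fold change -1.46, and spe-47, which has a major sperm protein domain, at adjusted p = 0.213 and log2 fold change -0.66. All 7 activation genes tested had a log2 fold change below 0 for MY16_Star against N2_Star, with a median of -1.84.

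try-5, a protease of male seminal fluid that activates sperm, did not pass the filter and stood at 0.312, 0.246 and 0.339 CPM in N2, 1.56, 0.511 and 0.394 in N2_Star, 0.683, 0.509 and 0.414 in MY16 and 0.291, 0.412 and 0.453 in MY16_Star. Its highest library was N2_Star replicate 1, with 31 counts, and all MY16 libraries were above all N2 libraries. The summed level of 6 male marker genes, which include try-5, was 0.937 to 1.14 CPM in N2, 1.30 to 2.82 in N2_Star, 0.725 to 1.07 in MY16 and 0.641 to 0.712 in MY16_Star, and 0 of the 6 passed the filter. spe-19, spe-29 and spe-43, of the spe-8 group, also did not pass, with group means of at most 0.384 ± 0.246 CPM (SD), that of spe-19 in N2_Star.

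Among 10 genes of fertilization and egg activation, 9 passed the filter and 4 were lower in MY16_Star than in N2_Star. Of all genes tested, 14.8% were lower. spe-9 (chromosome I, 11582743 to 11586069), an EGF-repeat protein of the sperm surface needed to enter the oocyte, stood at 1.75, 1.81 and 1.02 CPM in N2, 2.02, 1.19 and 1.72 in N2_Star, 0.512, 0.764 and 0.829 in MY16 and 0.991, 0.588 and 0.324 in MY16_Star. MY16_Star was below N2_Star in every library, with a mean 2.59-fold lower (log2 fold change -1.36, SE 0.44, adjusted p = 0.0448). spe-42 (chromosome V, 11733540 to 11736996), a membrane protein needed at the same step, stood at 0.562, 0.657 and 0.551 CPM in N2, 0.252, 0.454 and 0.984 in N2_Star, 0.0569, 0.153 and 0.104 in MY16 and 0, 0.118 and 0.129 in MY16_Star. These rest on 30 counts in N2, 33 in N2_Star, 5 in MY16 and 4 in MY16_Star, and the last was 6.84-fold below N2_Star in the mean (log2 fold change -2.70, SE 0.748, adjusted p = 0.0268). spe-49 (chromosome V, 6281359 to 6284895), a membrane protein related to spe-42, stood at 0.624, 0.657 and 0.762 CPM in N2, 0.504, 1.08 and 1.87 in N2_Star, 0.0569, 0.255 and 0.207 in MY16 and 0, 0.235 and 0.129 in MY16_Star. All MY16_Star libraries were below all N2_Star libraries, with a mean 9.47-fold lower (log2 fold change -3.18, SE 0.751, adjusted p = 0.0147). Both spe-42 and spe-49 entered the test through N2 and N2_Star libraries. comp-1 (chromosome I, 6429527 to 6431586), through which sperm outcompete those of other males, stood at 3.5, 3.69 and 3.47 CPM in N2, 1.06, 5.05 and 4.13 in N2_Star, 0.683, 1.68 and 1.66 in MY16 and 0.233, 0.529 and 1.68 in MY16_Star. Its mean was 4.19-fold lower in MY16_Star (log2 fold change -2.07, SE 0.673, adjusted p = 0.0452), with overlap at N2_Star replicate 1.

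For both spe-42 and spe-49, as for spe-9 and comp-1, every MY16 library was below every N2 library. None of these 4 was called in that contrast, at adjusted p = 0.122, adjusted p = 0.261, adjusted p = 0.29 and adjusted p = 0.389 in the order named. spe-11 (chromosome I, 5330578 to 5332169), a sperm-supplied protein that the fertilized egg needs to form its eggshell and complete meiosis, stood at 7.68, 12.5 and 9.95 CPM in N2, 8.41, 8.79 and 12.9 in N2_Star, 1.25, 4.28 and 6.84 in MY16 and 0.291, 2.18 and 5.18 in MY16_Star. Both isolate contrasts had lower MY16 levels in every library, and neither passed, with log2 fold change -1.99, SE 0.722, adjusted p = 0.0646 for MY16_Star against N2_Star and adjusted p = 0.514 for MY16 against N2. spe-38, a membrane protein needed for sperm to enter the oocyte, stood at 0.687, 0.985 and 1.31 CPM in N2, 0.302, 0.681 and 0.886 in N2_Star, 0.739, 0.764 and 0.725 in MY16 and 0.466, 1.06 and 0.518 in MY16_Star. Its groups overlapped (log2 fold change 0.13, SE 0.479, adjusted p = 0.857 for MY16_Star against N2_Star). The other 3 genes, spe-36, spe-41 and spe-51, had log2 fold changes of -0.05, -0.46 and -1.12 for MY16_Star against N2_Star and were not called.

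Of the genes not placed, spe-58 (chromosome I, 9921211 to 9921930) was lower in MY16_Star than in N2_Star. It stood at 3.43, 6.24 and 4.19 CPM in N2, 1.91, 3.74 and 5.61 in N2_Star, 0.853, 1.48 and 3.31 in MY16 and 0.175, 0.529 and 1.42 in MY16_Star. No library of MY16_Star reached N2_Star, and the mean was 5.3-fold lower (log2 fold change -2.41, SE 0.676, adjusted p = 0.0278). spe-48 stood at 29.8, 29.8 and 29.9 CPM in N2, 29.8, 34.4 and 29.8 in N2_Star, 33.3, 29.2 and 26.2 in MY16 and 30.1, 31 and 32.6 in MY16_Star, a level that overlapped across all groups. spe-54, spe-55 and spe-57 had log2 fold changes of -1.21, -1.89 and -2.06 in the same contrast and were not called, and spe-40 did not pass the filter.

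**Figure D4:**
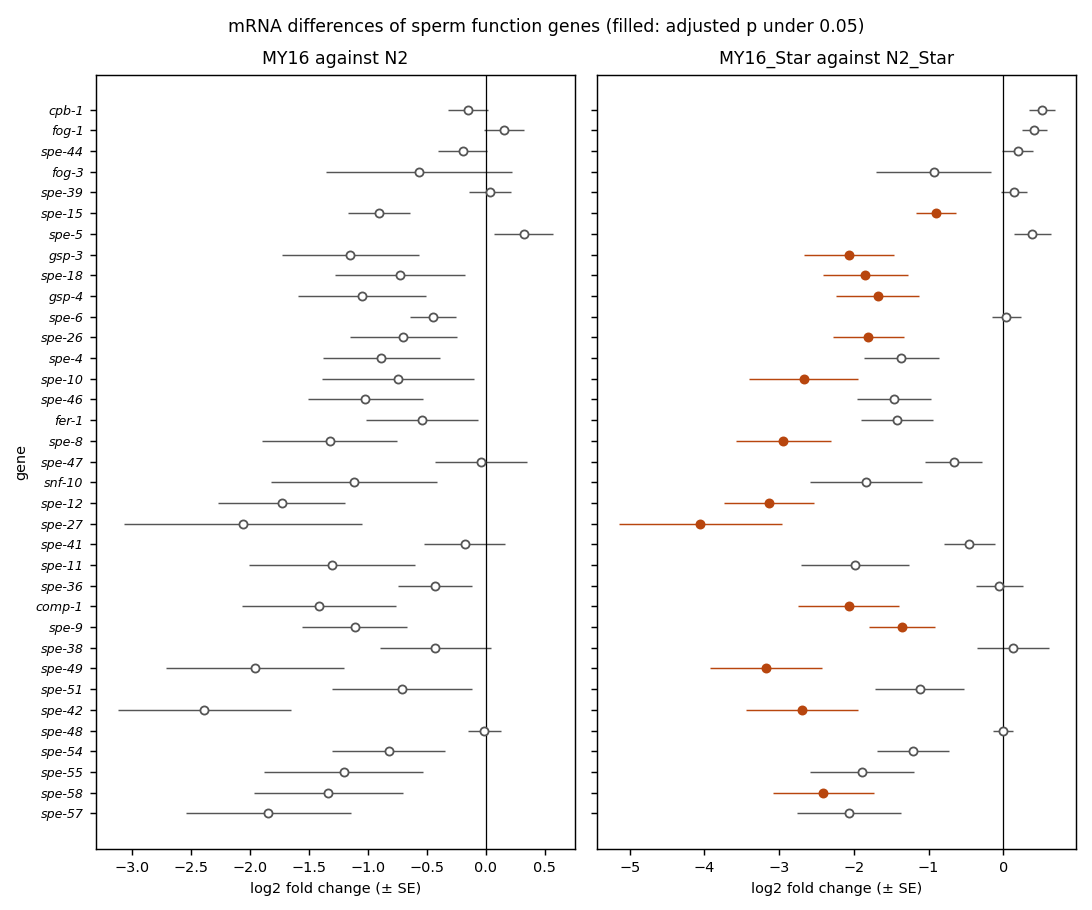
log2 fold change of mRNA with its SE for 35 of the sperm function genes tested, MY16 against N2 and MY16_Star against N2_Star; filled points passed an adjusted p of 0.05, and the x axes of the panels differ in range. Filled points occur only for MY16_Star against N2_Star and all 14 are below 0, from spe-15 at -0.90 to spe-49 at -3.18, apart from spe-27, whose fitted value rests on 2 counts in MY16_Star.

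The count of 14 in MY16_Star against N2_Star depended on single libraries, and not in 1 direction. It was 3 without MY16_Star replicate 2, 3 without N2_Star replicate 3, 5 without MY16_Star replicate 1, 9 without N2_Star replicate 2 and 9 without N2 replicate 2, and 2 where only these groups were fitted. It was 21 without N2_Star replicate 1 and 20 with DESeq2, which had 19 lower and 1 higher. The higher call was cpb-1, which is also among the 9 without N2_Star replicate 2. spe-8 and spe-12 stayed past the threshold in all 19 alternative fits and spe-49 in all 17 in which it was tested. Of these, spe-12 and spe-49 had a lower level built into their entry. By contrast, comp-1 and gsp-4 stayed past the threshold in 9 of 19 fits each and spe-9 in 5 of 19. Folds in MY16_Star against N2_Star also moved by over 1.5 times when a library was left out, with no change of direction. Without MY16_Star replicate 3 this held for 7 of the 14, as the log2 fold change went to -3.81 for spe-8, -3.32 for spe-10, -2.50 for spe-18, -3.39 for spe-58, -3.13 for comp-1, -2.92 for gsp-3 and -2.30 for gsp-4. Without MY16_Star replicate 1 it went to -2.06 for spe-10, -2.10 for spe-42 and -2.56 for spe-49, and spe-27 then had 0 counts in MY16_Star. Without MY16_Star replicate 2 it went to -3.99 for spe-49, and the value of spe-27 moved too, on 2 counts in MY16_Star. Without N2_Star replicate 3 it went to -2.01 for spe-42. In MY16 against N2, the count of 0 became 2 without N2_Star replicate 1, and the median of -0.86 became -0.56 without MY16 replicate 1. In MY16_Star against N2_Star, library scaling moved the median of all genes from -0.12 to -0.26 with no scaling factor, and that of the members from -1.45 to -1.57.

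Between Star and unstarred groups of 1 isolate, no member passed the test in mRNA. For MY16_Star against MY16, edgeR called 0 of 36 members, where 0.0215% of all genes were called, and DESeq2 called 0. At an unadjusted p under 0.05, edgeR had spe-8, spe-10, spe-12 and spe-26 lower and none higher, where 2.65% and 1.78% of all genes were. The mean was lower in MY16_Star for 35 of the 42 members, tested or not, and higher for 7. Of the 36 tested, 29 had a log2 fold change below 0, where 54.6% of all genes did. No member had all 3 MY16_Star libraries below all MY16 libraries, where 5.36% of all genes did. For 1 member all lay above, as for 748 of all 13983 genes. The median log2 fold change was -0.42 over the members and -0.04 over all genes, and it was -0.83 without MY16 replicate 1. For N2_Star against N2, edgeR called 0 of 36, where 0.150% of all genes were called, and DESeq2 called 0. cpb-1 was the only member at an unadjusted p under 0.05 (log2 fold change -0.38, adjusted p = 0.408), where 3.43% of all genes were lower. The median over members was -0.06 and became 0.16 without N2_Star replicate 1.

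The interaction, which is the difference of MY16_Star from MY16 less that of N2_Star from N2, called no member. edgeR and DESeq2 both called 0 of 36, where edgeR called 0% of all genes. At an unadjusted p under 0.05 edgeR had only cpb-1, with a value of 0.66 (adjusted p = 0.332), where 5.31% of all genes were higher. spe-8 had log2 fold change -1.62, SE 0.847, adjusted p = 0.428. The lower sperm function mRNA of MY16_Star against N2_Star was therefore not shown to differ from that of MY16 against N2.

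In small RNA, 32 of the 42 members passed the filter, and their differences went both ways. The labels give the small RNA table the letters AS without a definition, and the strand counted is not given in the sources used here. In MY16 against N2, spe-18, spe-41 and cpb-1 were higher and spe-15 and spe-44 were lower, 5 of 32 where 18.6% of all 12241 genes were called. This share is close to that of all genes, and the count was 3 without N2 replicate 2, MY16 replicate 1 or MY16 replicate 3. The median log2 fold change was -0.20 over the members.

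Small RNA of spe-41, the TRPC calcium channel that sperm need to fertilize, stood at 50.9, 39.4 and 49.5 CPM in N2, 59.1 and 54.4 in N2_Star, 102, 124 and 121 in MY16 and 102, 119 and 99.3 in MY16_Star. Both MY16 groups were about the same level and above every N2 and N2_Star library. MY16 was 2.48-fold above N2 in the mean (log2 fold change 1.32, SE 0.159, adjusted p = 0.000103), and MY16_Star was 1.88-fold above N2_Star (log2 fold change 0.91, SE 0.177, adjusted p = 0.00456). That of spe-15 stood at 22.7, 21.2 and 24.1 CPM in N2, 25 and 25.6 in N2_Star, 6.89, 6.74 and 5.81 in MY16 and 11, 7.8 and 5.38 in MY16_Star. It was lower in both MY16 groups without overlap, 3.5-fold for MY16 against N2 (log2 fold change -1.81, SE 0.261, adjusted p = 0.000399) and 3.13-fold for MY16_Star against N2_Star (log2 fold change -1.66, SE 0.266, adjusted p = 0.00135). spe-15 was also called lower in mRNA of MY16_Star against N2_Star.

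Small RNA of spe-18 stood at 6.91, 9.61 and 3.9 CPM in N2, 3.44 and 4.59 in N2_Star, 25.3, 24 and 28.7 in MY16 and 10.4, 7.73 and 5.06 in MY16_Star. The 3 MY16 libraries were above all others, with a mean 3.82-fold that of N2 (log2 fold change 1.83, SE 0.327, adjusted p = 0.00192). MY16_Star was 3.37-fold below MY16 (log2 fold change -1.76, SE 0.326, adjusted p = 0.0245), the only member called in a small RNA contrast of a Star group with its isolate, where 1.02% of all genes were called and 0.449% were lower. With the replicate number as a block the adjusted p was 0.0364. That call was lost without MY16 replicate 2 (adjusted p = 0.0756), MY16 replicate 3 (0.110), MY16_Star replicate 2 (0.121) or MY16_Star replicate 3 (0.103). Its interaction was not called (log2 fold change -0.87, SE 0.495, adjusted p = 1.0).

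cpb-1 small RNA stood at 76.8, 67.6 and 63.1 CPM in N2, 83.7 and 85.4 in N2_Star, 123, 99.7 and 112 in MY16 and 163, 112 and 114 in MY16_Star. MY16 was above N2 in all libraries (log2 fold change 0.68, SE 0.178, adjusted p = 0.019), a call lost with no scaling factor, with no filter, and without MY16 replicate 1 or 3 or N2 replicate 2. MY16_Star was likewise above N2_Star, where edgeR did not call it (log2 fold change 0.61, SE 0.198, adjusted p = 0.062) and DESeq2 did (adjusted p = 0.0452). spe-44 small RNA stood at 11.2, 11.9 and 17.6 CPM in N2, 14.5 and 9.18 in N2_Star, 4.59, 8.11 and 5.21 in MY16 and 7.72, 6.93 and 9.13 in MY16_Star. MY16 was below N2 without overlap (log2 fold change -1.09, SE 0.316, adjusted p = 0.0311), a call lost with only those groups fitted and without N2 replicate 2 or 3 or MY16 replicate 1 or 3. spe-5 small RNA stood at 4.86, 5.23 and 7.16 CPM in N2, 5.16 and 6.56 in N2_Star, 10.3, 9.34 and 8.64 in MY16 and 14.3, 10.1 and 10.1 in MY16_Star. It was higher in MY16_Star than in N2_Star in every library (log2 fold change 0.98, SE 0.299, adjusted p = 0.0486), and past the threshold in only 2 of 18 fits. In MY16_Star against N2_Star 3 of 32 members were called, spe-41 and spe-5 higher and spe-15 lower, where 14.5% of all genes were called, 5.82% higher and 8.66% lower. Without N2_Star replicate 2 the count was 1, that of spe-15.

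**Figure D5:**
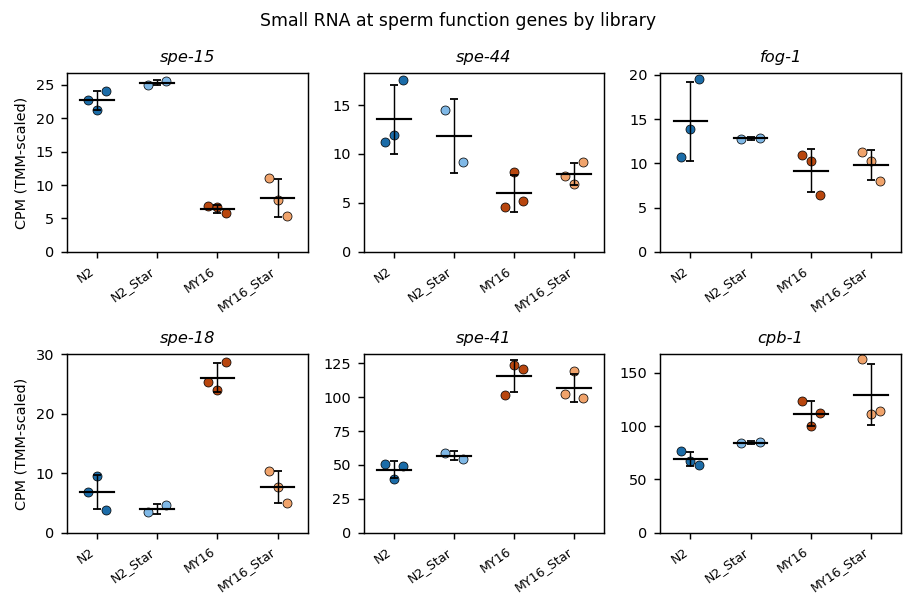
Small RNA level of 6 sperm function genes in CPM, TMM-scaled; horizontal lines are group means, error bars the SD over libraries (2 in N2_Star, 3 elsewhere) and points the single libraries. spe-41 and cpb-1 are higher and spe-15 lower in both MY16 groups, and spe-18 is high in MY16 alone.

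The remaining members with the most small RNA were not called. Small RNA of spe-39 stood at 51.1, 59.6 and 48.8 CPM in N2, 52.1 and 53.5 in N2_Star, 45.9, 61.7 and 63.9 in MY16 and 45, 61.8 and 69 in MY16_Star. That of spe-47 stood at 59.95, 51 and 41 CPM in N2, 58.8 and 20.3 in N2_Star, 39.1, 23.1 and 25.8 in MY16 and 45.9, 31.8 and 28.7 in MY16_Star. spe-39 overlapped between all groups, and for spe-47 every MY16 library was below every N2 library without passing the test (log2 fold change -0.84, SE 0.355, adjusted p = 0.134), which it passed in 5 of 18 alternative fits. Small RNA of spe-48 stood at 15.6, 15.5 and 16.9 CPM in N2, 14.4 and 14 in N2_Star, 10.3, 15.6 and 13.6 in MY16 and 9.48, 15.7 and 17.9 in MY16_Star. That of fog-1 stood at 10.8, 13.9 and 19.5 CPM in N2, 12.7 and 12.9 in N2_Star, 10.9, 10.3 and 6.4 in MY16 and 11.2, 10.3 and 7.99 in MY16_Star. spe-48 overlapped in MY16 against N2, and fog-1 was lower in all MY16_Star than in all N2_Star libraries (log2 fold change -0.38, SE 0.312, adjusted p = 0.455).

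In MY16_Star against N2_Star small RNA, all libraries were lower for 14 of the 32 members, where 26.3% of all genes were, and all were higher for 5, where 24.0% were. Levels of most other members were low. Replicate 1 was the lowest of its group for 24 of the 32 members in MY16, for 24 in N2_Star, which had only 2 libraries, and for 18 in MY16_Star. In N2 it was replicate 3, for 20 members. MY16 replicate 1 and N2 replicate 3 were the small RNA libraries with the fewest counts in genes. For MY16_Star against MY16 the median log2 fold change over members was -0.77, but -0.11 with only these groups fitted and -0.24 without MY16 replicate 3. For N2_Star against N2, edgeR called 0 of 32, where 0.0245% of all genes were called, DESeq2 called 0, and at an unadjusted p under 0.05 edgeR had snf-10 (-1.07) and spe-18 (-0.89) lower, where 0.890% of all genes were lower. The small RNA interaction called 0 of 32 with edgeR, where 0.368% of all genes were called, and 0 with DESeq2.

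The assays were set side by side for the 31 members tested in both. In MY16 against N2, 20 were lower in mRNA and in small RNA, 2 were higher in both, 8 were lower in mRNA and higher in small RNA, and 1 the reverse. None was called in both. In MY16_Star against N2_Star these counts were 19, 4, 6 and 2, and spe-15 was called lower in both assays. Each assay alone had most members below 0. In MY16 against N2 these were 33 of 36 in mRNA and 22 of 32 in small RNA, where 52.9% and 50.2% of all genes were. In MY16_Star against N2_Star they were 29 of 36 and 22 of 32, beside 55.8% and 51.2%. Many members lower in both follow from these counts alone, and a relation between the assays was not tested. spe-18 had less mRNA in MY16 than in N2 in every library (log2 fold change -0.73, SE 0.554, adjusted p = 0.729, not called) and more small RNA in every library.

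Other genes were taken from lists of sperm structural proteins, sex determination, small RNA pathways including that of sperm, and egg-side fertilization. The mRNA test covered 61 other sperm genes. For MY16_Star against N2_Star it called 37 lower and 2 higher, with a median log2 fold change of -1.76. Of all genes, 14.8% were lower and 7.69% higher there, with a median of -0.12. In MY16 against N2, 5 of the 61 were lower and 1 higher, with a median of -1.15. Of all 13983 genes, 323 were lower and 240 higher in that contrast (4.03% in either direction), with a median of -0.02. Genes of the 61 that entered the test only through N2 and N2_Star libraries, such as msp-76, had a lower level built into their entry. They were not counted apart here. Reads of the major sperm protein genes may be shared between near-identical copies, and MY16 alleles can map to another copy. msp-76 stood at 24.1 ± 1.15 CPM (SD) in N2 and, with 0, 4 and 2 counts, at 0.137 ± 0.119 in MY16 (adjusted p = 2.67e-05). msp-74 was higher in MY16, at 5.05 ± 2.63 CPM, than in N2, where it had 3, 1 and 1 counts. Both values are uncertain for that reason.

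The counts that follow are for MY16_Star against N2_Star and stand beside the 7.69% of all genes called higher and 14.8% called lower in it. Of 17 sex determination genes tested, fem-2 (log2 fold change 0.59, adjusted p = 0.0101) and fog-2 (0.49, adjusted p = 0.0291), both of which promote sperm fate, were higher in MY16_Star than in N2_Star, and sdc-2 was lower. In the ALG-3/4 and sperm small RNA pathway list, which is not limited to genes of sperm, 4 of 19 were higher. They were prg-1, the Piwi protein of piRNAs (0.72, adjusted p = 0.00252), wago-1, hrde-1 and csr-1. The 2 lower were the Argonaute genes wago-10 (-2.31, adjusted p = 0.0148) and alg-3 (-2.06, adjusted p = 0.0461). Of 13 egg-side genes, 8 were higher, among them egg-2, an oocyte surface receptor needed for sperm entry (0.81, adjusted p = 0.00325), and 1 was lower. The latter, egg-5, shares near-identical sequence with egg-4, which was higher, so their separate values are uncertain. Of 14 genes of the oocyte and sheath response to major sperm protein, oma-2 was higher and gipc-2 lower. For sex determination and for this response the counts are small and near or below those shares. So are the 2 of 19 lower in the small RNA pathway list.

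Markers of other tissues and stages were counted in the same contrast, beside the same shares of 7.69% and 14.8%. Of 12 oocyte and maternal germline markers 7 were higher in MY16_Star than in N2_Star and none lower. The median of these markers stood at 120% to 162% of N2 in MY16_Star libraries and 56.9% to 102% in N2_Star. The lists overlap. The calls of egg-1, egg-2, rme-2 and cpg-2 were already counted among the egg-side genes, and that of oma-2 in the response to major sperm protein. Of 17 genes of the L4 molt and adult cuticle timing, 8 were lower and none higher, and their summed level was 223 to 590 CPM in N2_Star, 110 to 151 in MY16_Star, 114 to 141 in N2 and 109 to 195 in MY16. Lower calls also occurred in 1 of 4 body wall muscle, 2 of 5 neuron, 1 of 3 hypodermis and 2 of 4 zygotic embryo markers. Of intestine markers 0 of 6 were called. The hypodermis call, dpy-7, is also counted among the L4 molt and cuticle genes. Lists of 3 to 6 genes are too short to be set apart from 14.8%. The part of stage or tissue makeup in the lower sperm function mRNA was not tested.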

How the data were processed

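The authors deposited whole-number counts of reads per gene, not normalized, in a table of mRNA and a table of small RNA. Per the submitters' processing notes, cutadapt, FastQC, Bowtie2, HTSeq and DESeq2 were used with ce11; versions and strand settings are not given in the sources used here. Both assays list the same NEBNext Small RNA kit, per the labels' protocols. Lines naming no gene were left out; their share was 7.84% to 17.7% in mRNA libraries and 38.7% to 46.6% in small RNA libraries.

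Symbols, overlaps and coordinates (1-based) came from the RefSeq annotation of WBcel235, which ce11 names; 44017 of 46904 IDs had a symbol. A single model per assay, with all 4 groups, was fitted in edgeR 4.0.16 (R 4.3.3, limma 3.58.1), using TMM scaling, filterByExpr (13983 mRNA and 12241 small RNA genes kept) and the quasi-likelihood F-test. The SE is the log2 fold change divided by the square root of F. Values are CPM, mean ± SD. In mRNA libraries 3 counts, the limit set by a count of 0, equal 0.130 to 0.320 CPM, and in small RNA libraries 0.153 to 1.69 CPM. Such limits and the interval given for spe-27 cover counting error only, as PCR copies were not told apart. The test was also run on simulated counts, with changes only in genes above a minimum level and no variation shared between libraries. That run does not cover members of low level.

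The members and lists were chosen with earlier results of these data known. Library values were given for called members, the 8 highest of each assay and a fixed set of members, in mRNA for all of these and in small RNA for those called or highest there, and list genes were named by smallest p. Single values of 2 members are not reported here, though the counts and medians include them. Deviations from the group mean correlated over 0.1 in every same-numbered pair (0.12 to 0.36) only in small RNA of MY16_Star and MY16. In mRNA, between all groups, the pairs of replicate 1 correlated at 0.14 to 0.42 and those of replicate 3 at 0.12 to 0.53. The pairs of replicate 2 were at -0.18 to 0.07. Alternatives were other scalings and filters, DESeq2 1.42.0, fits of only the groups compared, a replicate block and leaving out each library.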

Additional observations from a re-analysis of the deposited data

How the results depend on the processing

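Of 23 member results, none changed direction under any alternative (421 values, of which 320 were past the threshold and 101 were not). In mRNA MY16 against N2, the count of members called was 1 with DESeq2, 1 with a replicate block and 1 with only the groups compared, and 0 to 2 when libraries were left out in turn. In mRNA MY16_Star against N2_Star it was 22 with the replicate block (21 lower and 1 higher), 2 with only the groups compared and 3 to 21 with a library left out. In small RNA, leaving out libraries gave 3 to 6 members for MY16 against N2, 0 to 1 for MY16_Star against MY16, and 1 to 3 for MY16_Star against N2_Star. The replicate block changed no other count by more than 1.5 times. It ended the small RNA call of spe-44 in MY16 against N2 (adjusted p = 0.0542). The labels tie same-numbered libraries to nothing, so what they share beyond the number is not known. Causes were not tested. Depth limits the members with few counts: in small RNA, N2 replicate 3 and MY16 replicate 1 had 1778321 and 1961627 counts in genes, and low members are at 0 there.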

Other observations

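Among listed genes outside the comparisons above, small RNA of plg-1, which encodes the mucin of the male copulatory plug, stood at 842 ± 166 CPM (SD) in N2, 883 ± 21.6 in N2_Star, 0.305 ± 0.406 in MY16 and 7.1 ± 5.43 in MY16_Star. The MY16 libraries had 0, 5 and 1 counts, at or near the limit that a count of 0 allows, so no fold is given. The test called it lower in MY16 than in N2 (adjusted p = 7.3e-07) and higher in MY16_Star, with 18, 55 and 82 counts, than in MY16 (adjusted p = 0.0192).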
